A study of Homo sapiens with 16 samples.

Results

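The 10 genes described here encode 5 receptor tyrosine kinases of the PDGF receptor and VEGF receptor families (PDGFRA, PDGFRB, KIT, FLT1 and KDR) and 5 of their ligands (PDGFA, PDGFB, KITLG, VEGFA and VEGFC). They were chosen by name, as receptors and ligands of PDGF, VEGF and KIT signaling, with earlier results of these data known. They were matched by symbol to their Ensembl identifiers in the deposited tables, which hold 57820 genes. All 10 were found, and all 10 passed the filter on low counts in both serum conditions.

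RNA-Seq was performed on sublines of MDA-MB-231 and MDA-MB-436, both human mesenchymal triple-negative breast cancer cell lines. All cells, NEG and POS alike, carried the 7TGP plasmid, in which Tcf sites and a minimal promoter drive eGFP and which confers puromycin resistance. Repeated sorting by eGFP gave 1 reporter-negative subline (7TGP-NEG) and 1 reporter-positive subline (7TGP-POS) of each cell line, so the 2 replicates of a group are biological duplicates of the same sorted subline, and p-values measure the spread between such duplicates. The 8 groups are the 4 sublines in low serum (0.5% FBS, day 3) and the same 4 sublines in standard serum (10% FBS, day 6), with 2 libraries each. Per the methods of the study, the serum conditions also differed in RNA selection, library kit, sequencer and read length, although the labels name 1 kit throughout. These cannot be told apart from serum, and no difference between serum conditions was tested. Each comparison was made within a serum condition. By the same methods, the 2 cell lines were kept in different base media, so medium cannot be told apart from cell line.

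PDGF ligands are dimers of A or B chains. The A chain binds PDGFRA, and the B chain binds both PDGF receptors, which drive the growth and migration of mesenchymal cells and, through PDGFRB, of pericytes. VEGFA binds KDR (VEGFR2), the main signaling receptor of endothelial cells, and FLT1 (VEGFR1), which binds VEGFA more tightly but signals more weakly and is also the receptor of placental growth factor. VEGFC acts through FLT4 and KDR in lymphatic vessels. KIT is the receptor of stem cell factor, the product of KITLG, and is known from mast cells, melanocytes, germ cells and luminal progenitor cells of the breast. Tumor cells commonly secrete VEGF and PDGF ligands, which act on neighboring vessels and stroma.

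The 250 bases before the start site are shown for 4 genes: PDGFRB, KIT and FLT1, the receptors with the largest increases in MDA-MB-436 7TGP-POS cells, and KITLG, the ligand that decreased there. The sequences are from RefSeq on GRCh38.p14, on the coding strand from 5′ to 3′. Capitals mark GC boxes (GGGCGG on either strand) and TATA motifs (TATAAA on either strand).
PDGFRB: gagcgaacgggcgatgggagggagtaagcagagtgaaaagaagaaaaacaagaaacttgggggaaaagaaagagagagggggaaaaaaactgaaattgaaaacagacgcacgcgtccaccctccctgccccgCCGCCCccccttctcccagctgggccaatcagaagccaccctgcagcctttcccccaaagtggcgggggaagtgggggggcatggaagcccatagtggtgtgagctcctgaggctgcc
KIT: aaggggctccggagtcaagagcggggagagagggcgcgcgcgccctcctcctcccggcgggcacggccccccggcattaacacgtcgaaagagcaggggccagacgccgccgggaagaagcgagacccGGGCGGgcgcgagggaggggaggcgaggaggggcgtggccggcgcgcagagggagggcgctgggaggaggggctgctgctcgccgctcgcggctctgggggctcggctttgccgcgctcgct
FLT1: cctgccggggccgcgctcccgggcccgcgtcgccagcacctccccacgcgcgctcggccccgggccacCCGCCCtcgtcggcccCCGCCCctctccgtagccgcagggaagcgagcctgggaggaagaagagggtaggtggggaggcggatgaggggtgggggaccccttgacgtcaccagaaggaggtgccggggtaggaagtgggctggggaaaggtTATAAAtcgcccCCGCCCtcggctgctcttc
KITLG: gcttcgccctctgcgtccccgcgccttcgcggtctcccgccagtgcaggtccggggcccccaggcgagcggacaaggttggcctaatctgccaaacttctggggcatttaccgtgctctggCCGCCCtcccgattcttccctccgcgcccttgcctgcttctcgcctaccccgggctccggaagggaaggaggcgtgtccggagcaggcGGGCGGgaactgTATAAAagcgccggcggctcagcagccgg
They lie at chr5:150155846-150156095 (minus strand), chr4:54657707-54657956 (plus strand), chr13:28495129-28495378 (minus strand) and chr12:88580472-88580721 (minus strand), in that order. FLT1 held 3 GC boxes and KITLG held 2, and in both a TATA motif stood close to the start, beginning at -31 in FLT1 and at -29 in KITLG. PDGFRB and KIT each held 1 GC box and no TATA motif. Of 35116 RefSeq promoter windows of 300 bases (250 before and 50 after the start), 45.0% held a GC box and 11.5% a TATA motif.

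The Tcf/Lef core ATCAAAG, the motif that the reporter is built on, was looked for on both strands in the same windows. It was present in 919 windows (2.62%). Of the 8 genes with a window, which leaves out VEGFA and PDGFB, only PDGFA held it, in 1 of its 4 windows, on the strand opposite to the gene, beginning at -215. The capitals mark the core, at chr7:520045-520071 (minus strand).
PDGFA: gggcgcggggCTTTGATggatttagct
A match of letters is a description of the window and says nothing of binding.

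Ligand transcripts were far more abundant than receptor transcripts in all 16 libraries. In TPM, the deposited values per transcript length and library, the 5 ligands summed to between 98.8 and 243.93 and the 5 receptors to between 0.67 and 20.3. In MDA-MB-231, KDR made up 49.9% to 64.1% of the receptor TPM in low serum and 79.0% to 83.6% in standard serum. In MDA-MB-436, the receptor sum was higher in POS than in NEG libraries, 3.98 and 4.29 against 1.64 and 1.26 TPM in low serum, and 3.11 and 2.42 against 0.67 and 0.76 TPM in standard serum. The share of FLT1 in the receptor TPM was larger in POS than in NEG libraries there, with 28.4% and 28.7% in POS against 15.9% and 11.1% in NEG libraries in low serum, and 39.2% and 40.1% against 13.4% and 17.1% in standard serum. Among the ligands, VEGFA and VEGFC held most of the TPM in MDA-MB-231, whereas PDGFA alone held 53.4% to 67.9% in MDA-MB-436 in low serum.

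**Figure D1:**
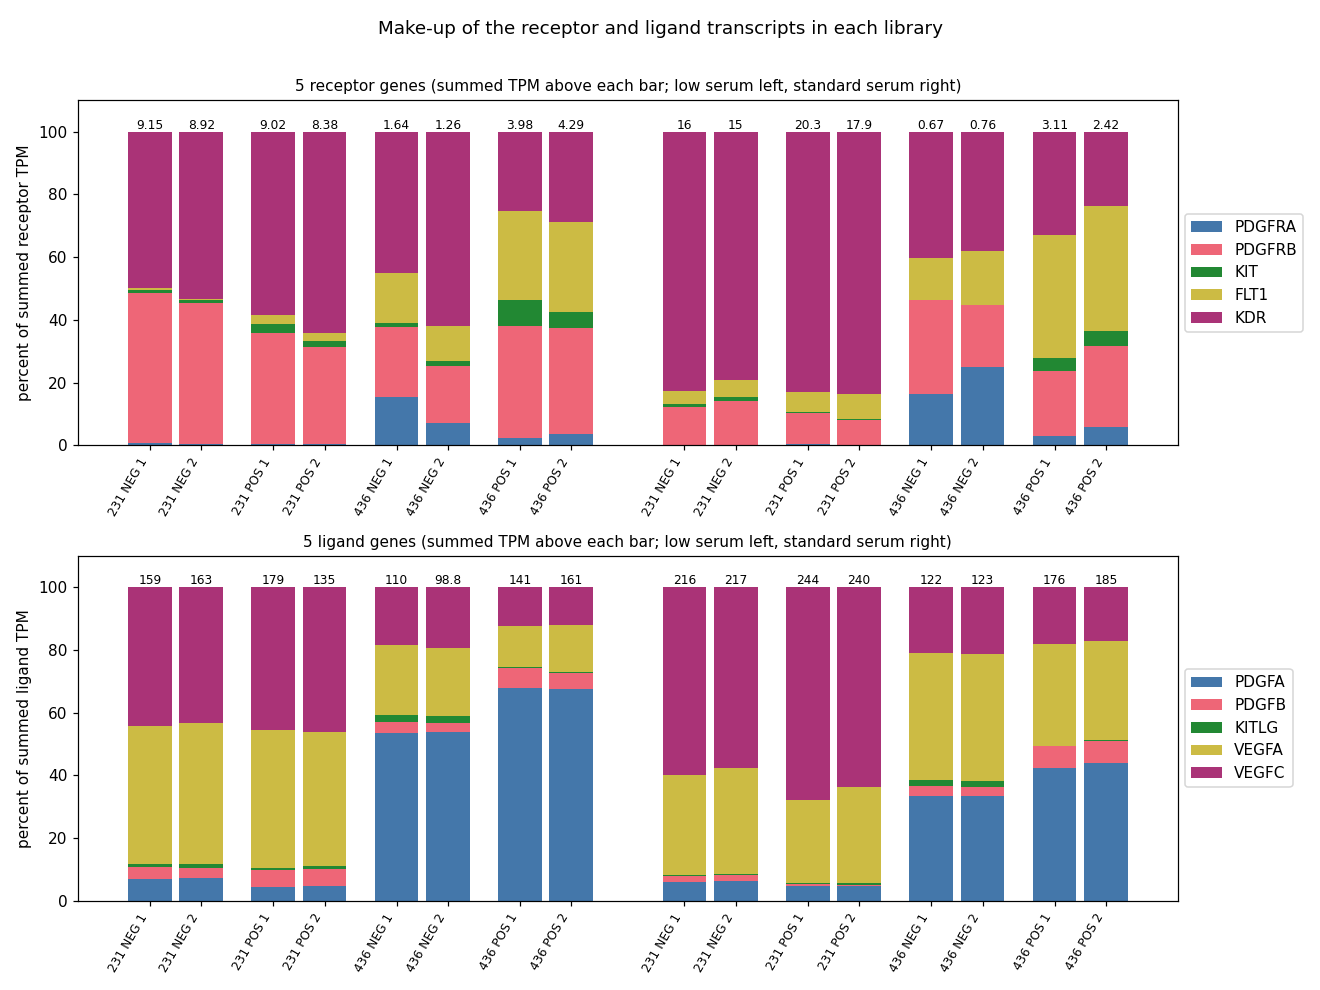
Percent of the summed TPM of the 5 receptors (top) and the 5 ligands (bottom) contributed by each gene in each library, with the summed TPM above each bar. KDR fills most of each MDA-MB-231 receptor bar in standard serum, and PDGFA most of each MDA-MB-436 ligand bar in low serum.

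Counts of each gene were compared between POS and NEG libraries with edgeR's quasi-likelihood test, and a gene is called here when its Benjamini-Hochberg adjusted p over all protein-coding genes tested is under 0.05 and its absolute log2 fold change is at least 1. In MDA-MB-436 in low serum, 6 of 10 genes were called, against 10.5% of all genes tested: PDGFRB, KIT, FLT1, PDGFA and PDGFB rose in POS cells and KITLG fell. In standard serum, 6 of 10 genes were again called, against 12.5% of all genes: PDGFRB, KIT, FLT1, KDR and PDGFB rose and KITLG fell. The median log2 fold change of the 10 genes was 0.96 in low serum and 1.13 in standard serum, where the medians over all genes were 0.01 and 0.00474. The 10 genes were chosen with earlier results of these data known. Their shares and medians beside those of all genes are therefore a description, not a test of the set. In MDA-MB-231, fewer were called. In low serum 2 of 10 rose (KIT and FLT1), against 5.90% of all genes, with a median of 0.17 over the 10 genes and -0.01 over all genes. In standard serum 1 of 10 was called (PDGFB, which fell), against 7.69% of all genes, with medians of -0.07 and 0.

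**Figure D2:**
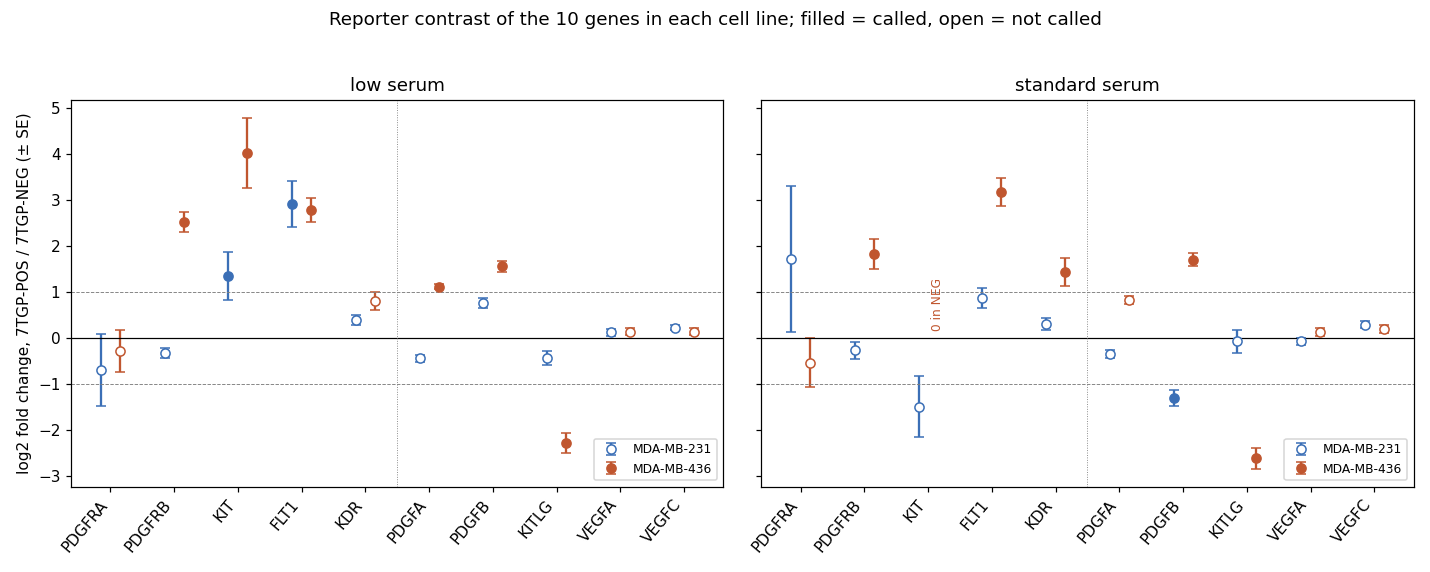
Log2 fold change of POS over NEG cells with its standard error (SE) for each gene, in MDA-MB-231 (blue) and MDA-MB-436 (orange), in low serum (left) and standard serum (right). Filled points are called, dashed lines mark a log2 fold change of 1 and -1, and KIT in MDA-MB-436 in standard serum has no point because both NEG libraries held 0 counts.

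PDGFRB (ENSG00000113721, chr5:149493402-149535435 on GRCh37) rose with the reporter in MDA-MB-436 and not in MDA-MB-231. In low serum, its TPM was 4.37 and 4.01 in MDA-MB-231 7TGP-NEG, 3.19 and 2.61 in 7TGP-POS, 0.37 and 0.23 in MDA-MB-436 7TGP-NEG, and 1.43 and 1.46 in 7TGP-POS. In standard serum, the values in the same order were 1.95 and 2.11, 2.01 and 1.45, 0.20 and 0.15, and 0.65 and 0.63. Both MDA-MB-436 POS libraries lay above both NEG libraries in each serum condition, and all MDA-MB-231 libraries lay above all MDA-MB-436 libraries. In bulk libraries such as these, fewer cells that carry a transcript and less of it per cell cannot be told apart. By edgeR's quasi-likelihood test, PDGFRB rose in MDA-MB-436 POS cells with a log2 fold change of 2.52 (SE 0.22, adjusted p = 4.64e-13) in low serum and 1.83 (SE 0.32, adjusted p = 0.000122) in standard serum. In MDA-MB-231, the log2 fold change was -0.34 (SE 0.11, edgeR adjusted p = 0.0137) in low serum, under the fold threshold, and -0.27 (SE 0.19, edgeR adjusted p = 0.317) in standard serum. The difference of the reporter contrast between the cell lines was itself called in both serum conditions, at -2.86 (SE 0.25, edgeR adjusted p = 7.31e-13) and -2.10 (SE 0.38, edgeR adjusted p = 0.000201).

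PDGFRB is also a marker of pericytes, so other pericyte and smooth muscle genes are given beside it. Of 5 such genes, 4 rose in MDA-MB-436 POS cells in low serum (RGS5, ACTA2, CSPG4 and MYH11) and DES fell (a call that DESeq2 did not make, adjusted p = 0.0903), and 3 rose in standard serum (RGS5, ACTA2 and CSPG4). The shares called over all genes tested were 10.5% and 12.5% in MDA-MB-436 and 5.9% and 7.69% in MDA-MB-231, in low and standard serum. CSPG4, the NG2 proteoglycan, went from 5 to 10 counts in NEG to 323 to 381 counts in POS libraries in low serum and from 1 to 3 to 622 to 638 counts in standard serum. The summed TPM of the 5 genes was 2.68 to 3.29 in NEG and 7.13 to 8.85 in POS cells in low serum, and 3.67 to 3.83 and 13.9 to 16.5 in standard serum. In MDA-MB-231, where PDGFRB did not rise, CSPG4 fell in low serum (-1.27 on the log2 scale), and the sums were 19.7 to 20.4 in NEG and 8.69 to 10.1 in POS cells in low serum, and 43.8 to 48.6 and 35.5 to 36.7 in standard serum. Their part in the PDGFRB result was not tested.

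PDGFRA (ENSG00000134853, chr4:55095447-55164412 on GRCh37), the other PDGF receptor, was near the floor in all groups. Its counts were 8 and 4 in MDA-MB-231 7TGP-NEG, 4 and 3 in 7TGP-POS, 25 and 9 in MDA-MB-436 7TGP-NEG and 12 and 15 in 7TGP-POS in low serum. In standard serum they were 1 and 0, 4 and 0, 10 and 20, and 11 and 13. NEG and POS libraries overlapped in both cell lines in standard serum and in MDA-MB-436 in low serum, and met at 4 counts in MDA-MB-231 in low serum. In MDA-MB-231 in standard serum, the ratio of POS to NEG was 3.77, with an exact 95% interval of 0.373 to 185 that covers counting error only. No reporter contrast of PDGFRA was called by edgeR's quasi-likelihood test or by DESeq2, and none had an unadjusted p under 0.05.

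PDGFA (ENSG00000197461, chr7:536895-559933), which encodes the A chain, was the most abundant of the ligands in MDA-MB-436 cells in low serum and moved in opposite directions in the 2 cell lines. Its TPM in low serum was 10.9 and 11.5 in MDA-MB-231 7TGP-NEG, 7.80 and 6.52 in 7TGP-POS, 58.8 and 53.0 in MDA-MB-436 7TGP-NEG, and 95.8 and 108 in 7TGP-POS. In standard serum it was 13.1 and 13.9, 11.0 and 10.8, 40.9 and 41.0, and 74.4 and 81.4. No POS library overlapped its NEG group in any of these pairs. In MDA-MB-436, the log2 fold change was 1.11 (SE 0.05, adjusted p = 4.96e-21 by edgeR's quasi-likelihood test) in low serum, and 0.83 (SE 0.08, edgeR adjusted p = 1.50e-07) in standard serum, where it fell short of the fold threshold. In MDA-MB-231, it was -0.45 (SE 0.07, edgeR adjusted p = 3.68e-06) and -0.35 (SE 0.09, edgeR adjusted p = 0.00686), also under that threshold. On log2(TPM + 0.1), tested with limma, the low serum value in MDA-MB-436 was 0.87 and was not called. The cell-line difference of the contrast was called in both serum conditions, at -1.56 (SE 0.09) and -1.18 (SE 0.12).

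PDGFB (ENSG00000100311, chr22:39619364-39640987), which encodes the B chain, rose in MDA-MB-436 POS cells in both serum conditions. In low serum its TPM was 4.02 and 3.05 in NEG against 8.85 and 8.65 in POS libraries, and in standard serum it was 3.74 and 3.55 against 12.39 and 12.96. The log2 fold changes were 1.56 (SE 0.12, edgeR adjusted p = 3.74e-14) and 1.70 (SE 0.14, edgeR adjusted p = 1.72e-08). In MDA-MB-231, PDGFB stood higher in POS libraries in low serum and lower in standard serum. The TPM there was 5.89 and 5.58 in NEG against 9.81 and 7.25 in POS in low serum, and 3.73 and 3.79 against 1.77 and 1.37 in standard serum, without overlap in either. The log2 fold change was 0.76 (SE 0.11, edgeR adjusted p = 1.86e-07) in low serum, under the fold threshold, and -1.30 (SE 0.18, edgeR adjusted p = 1.34e-05) in standard serum. The cell-line difference of the contrast was -0.79 (SE 0.17) in low serum, which was not called, and -3.003 (SE 0.22, edgeR adjusted p = 7.45e-09) in standard serum, which was.

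KIT (ENSG00000157404, chr4:55523434-55606949) is described by its counts, since no group reached 1 TPM. In MDA-MB-436, the NEG libraries held 1 and 1 counts in low serum, where the POS libraries held 23 and 13. In standard serum they held 0 and 0, against 9 and 6 in the POS libraries. In MDA-MB-231, the NEG libraries held 6 and 7 counts and the POS libraries 20 and 12 in low serum, and 9 and 10 against 5 and 2 in standard serum. KIT was thus higher in POS libraries in 3 of these 4 pairs and lower in MDA-MB-231 in standard serum, with no overlap between the groups in any pair.

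In MDA-MB-436 in low serum, the ratio of KIT in POS over NEG cells was 18.4, with an exact 95% interval for counting error of 4.73 to 158, and edgeR's quasi-likelihood test gave an adjusted p of 2.04e-05. In standard serum, the mean of KIT in POS libraries was 2.09-fold that in NEG libraries when both NEG libraries are set to the floor of 3 counts per library. That ratio leaves out the counting error of the POS libraries. On the counts themselves, the edgeR adjusted p was 0.00355. In MDA-MB-231, the log2 fold change was 1.35 (SE 0.52, edgeR adjusted p = 0.0380) in low serum. That call ended when NEG replicate 1, NEG replicate 2 or POS replicate 1 of this pair was left out (edgeR adjusted p = 0.163, 0.0994 and 0.265), and under DESeq2's Wald test (adjusted p = 0.192). In standard serum the log2 fold change was -1.50 (SE 0.67, edgeR adjusted p = 0.0974). Mast cells are known for KIT, and 5 mast cell genes are given beside it. TPSAB1, TPSB2, MS4A2 and HDC held at most 6 counts in any library, and CPA3, called higher in POS cells of MDA-MB-231 in low serum and of MDA-MB-436 in standard serum, held at most 14. The 5 summed to 0.03 to 0.07 TPM in NEG and 0.12 to 0.13 in POS cells of MDA-MB-436 in low serum, to 0.07 to 0.11 and 0.38 in standard serum, and to 0.28 to 0.84 in MDA-MB-231. Of all genes tested, 5.9% were called in MDA-MB-231 in low serum and 12.5% in MDA-MB-436 in standard serum. The part of the mast cell genes in the KIT result was not tested.

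**Figure D3:**
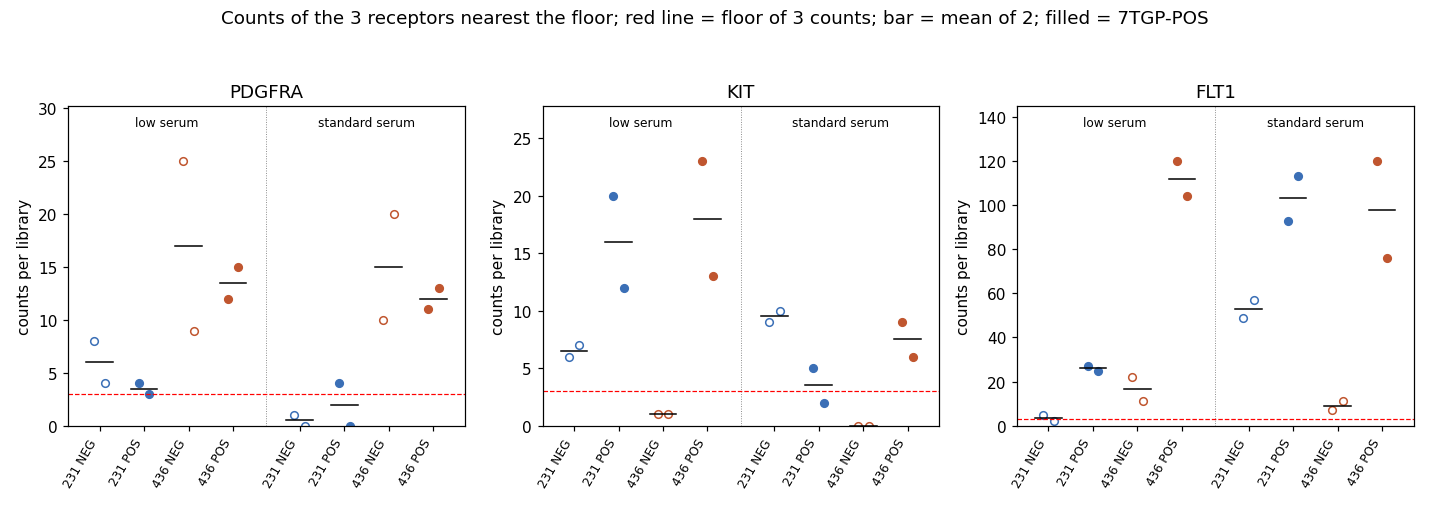
Counts per library of PDGFRA, KIT and FLT1 in the 8 groups, with the mean of each group of 2 as a bar and the floor of 3 counts as a red line. KIT lies under the floor in all 4 MDA-MB-436 NEG libraries and above it in all 4 MDA-MB-436 POS libraries.

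KITLG (ENSG00000049130, chr12:88886570-88974628), which encodes the ligand of KIT, went the other way in MDA-MB-436. Its TPM was 2.25 and 2.04 in NEG against 0.37 and 0.36 in POS libraries in low serum, and 2.12 and 2.68 against 0.45 and 0.37 in standard serum. The groups did not overlap, and the counts behind them were 140 and 121 against 29 and 23, and 119 and 172 against 33 and 22. KITLG fell with a log2 fold change of -2.29 (SE 0.21, adjusted p = 4.80e-12 by edgeR's quasi-likelihood test) in low serum and -2.63 (SE 0.23, edgeR adjusted p = 3.76e-08) in standard serum. In MDA-MB-231, the TPM was 1.89 and 1.95 in NEG against 1.17 and 1.29 in POS libraries in low serum, and 0.82 and 0.90 against 0.76 and 0.92 in standard serum, where the groups overlapped. The log2 fold changes there were -0.44 (SE 0.16, edgeR adjusted p = 0.0268) and -0.08 (SE 0.24, edgeR adjusted p = 0.868), and neither was called. The cell-line difference of the contrast was called in both serum conditions, at 1.85 (SE 0.28) and 2.55 (SE 0.34).

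FLT1 (ENSG00000102755, chr13:28874483-29069282) was higher in POS than in NEG libraries in all 4 pairs. In low serum, its counts were 5 and 2 in MDA-MB-231 7TGP-NEG, 27 and 25 in 7TGP-POS, 22 and 11 in MDA-MB-436 7TGP-NEG and 120 and 104 in 7TGP-POS. In standard serum, they were 49 and 57, 93 and 113, 7 and 11, and 120 and 76. In TPM, the group means ran from 0.035 to 1.18 in low serum and from 0.11 to 1.36 in standard serum, so that FLT1 stayed a low transcript where it was highest.

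In low serum, the log2 fold change of FLT1 was 2.92 (SE 0.50, edgeR adjusted p = 6.50e-06) in MDA-MB-231 and 2.78 (SE 0.26, edgeR adjusted p = 4.28e-12) in MDA-MB-436. The difference between the cell lines was 0.13 (SE 0.55, edgeR adjusted p = 0.879). In standard serum, the log2 fold change was 3.18 (SE 0.31, edgeR adjusted p = 1.35e-07) in MDA-MB-436 and 0.86 (SE 0.22, edgeR adjusted p = 0.00514) in MDA-MB-231, under the fold threshold. The difference was called there, at -2.32 (SE 0.40, edgeR adjusted p = 0.000137). Without NEG replicate 2 of MDA-MB-231, the standard serum value in that line became 1.06 (edgeR adjusted p = 0.00699) and was called.

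KDR (ENSG00000128052, chr4:55944648-55991762) was the most abundant receptor in MDA-MB-231, and both POS libraries lay above both NEG libraries in all 4 pairs. Its TPM in low serum was 4.57 and 4.76 in MDA-MB-231 7TGP-NEG, 5.27 and 5.37 in 7TGP-POS, 0.74 and 0.78 in MDA-MB-436 7TGP-NEG, and 1.01 and 1.23 in 7TGP-POS. In standard serum it was 13.2 and 11.8, 16.9 and 14.9, 0.27 and 0.29, and 1.02 and 0.57. Only the increase in MDA-MB-436 in standard serum was called, with a log2 fold change of 1.44 (SE 0.30, edgeR adjusted p = 0.00104), where the 2 POS libraries held 78 and 35 counts. Without POS replicate 1 of that group it was 0.91 (edgeR adjusted p = 0.0225) and no longer called. The other values were 0.80 (SE 0.20, edgeR adjusted p = 0.000629) in MDA-MB-436 in low serum, and 0.39 (SE 0.10, edgeR adjusted p = 0.00195) and 0.31 (SE 0.13, edgeR adjusted p = 0.0980) in MDA-MB-231 in low and standard serum. The cell-line difference of the contrast was -1.13 (SE 0.33, edgeR adjusted p = 0.0130) in standard serum. That call ended without MDA-MB-436 NEG replicate 1, NEG replicate 2 or POS replicate 1 (edgeR adjusted p = 0.0736, 0.0805 and 0.142).

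Endothelial genes are given beside FLT1 and KDR, which are best known from that cell type. CDH5, the endothelial cadherin, held at most 5 counts in any library, and TEK held at most 19. ESAM and ROBO4 were well expressed in MDA-MB-231, where ESAM reached 87.4 to 286 TPM. In MDA-MB-231, 0 endothelial genes were called in either serum condition, of 7 and 5 tested, by edgeR's quasi-likelihood test, 2 and 4 had an unadjusted p under 0.05, and DESeq2 called 0. In MDA-MB-436, CLDN5 rose and ROBO4 fell in low serum. In standard serum edgeR called CLDN5 lower, on 11 and 11 counts in NEG against 4 and 4 in POS libraries, and DESeq2 did not (adjusted p = 0.416). The shares called over all genes tested were 5.9% and 7.69% in MDA-MB-231 and 10.5% and 12.5% in MDA-MB-436, in low and standard serum. PECAM1 had no match by symbol. The summed TPM of the 7 genes in MDA-MB-436 was 4.73 to 5.40 in NEG and 5.08 to 5.30 in POS cells in low serum, and 3.45 to 3.81 and 2.27 to 2.53 in standard serum. In MDA-MB-231 it was 139.5 to 146 and 116 to 142 in low serum, and 333 to 336 and 324 to 327 in standard serum.

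VEGFA (ENSG00000112715, chr6:43737921-43754224) and VEGFC (ENSG00000150630, chr4:177604689-177714076) were the deepest sequenced of the 10 genes in MDA-MB-231, and neither was called in any reporter contrast by edgeR or DESeq2. VEGFA, the main ligand of KDR and FLT1, held 69.8 and 73.3 TPM in MDA-MB-231 7TGP-NEG, 78.5 and 57.9 in 7TGP-POS, 24.8 and 21.4 in MDA-MB-436 7TGP-NEG and 18.8 and 24.1 in 7TGP-POS in low serum. In standard serum it held 68.4 and 73.4, 65.0 and 74.1, 49.5 and 49.9, and 57.4 and 58.8 TPM. In TPM, NEG and POS libraries overlapped except in MDA-MB-436 in standard serum. The 4 log2 fold changes ran from -0.07 to 0.14, with an SE of 0.07 to 0.08, and edgeR's adjusted p ran from 0.156 to 0.547.

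VEGFC held 70.2 and 70.6 TPM in MDA-MB-231 7TGP-NEG, 81.6 and 62.4 in 7TGP-POS, 20.3 and 19.3 in MDA-MB-436 7TGP-NEG, and 17.3 and 19.2 in 7TGP-POS in low serum. In standard serum it held 129 and 125, 165 and 152, 25.6 and 26.3, and 31.8 and 31.6 TPM. In standard serum, both POS libraries lay above both NEG libraries in each cell line. The log2 fold changes were 0.22 (SE 0.06, edgeR adjusted p = 0.00215) and 0.28 (SE 0.08, edgeR adjusted p = 0.0072) in MDA-MB-231 in low and standard serum, and 0.13 (SE 0.08) and 0.19 (SE 0.08) in MDA-MB-436, whose edgeR adjusted p were 0.164 and 0.0675. The cell-line difference was 0.09 in each serum condition, with an SE of 0.10 and 0.11.

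**Figure D4:**
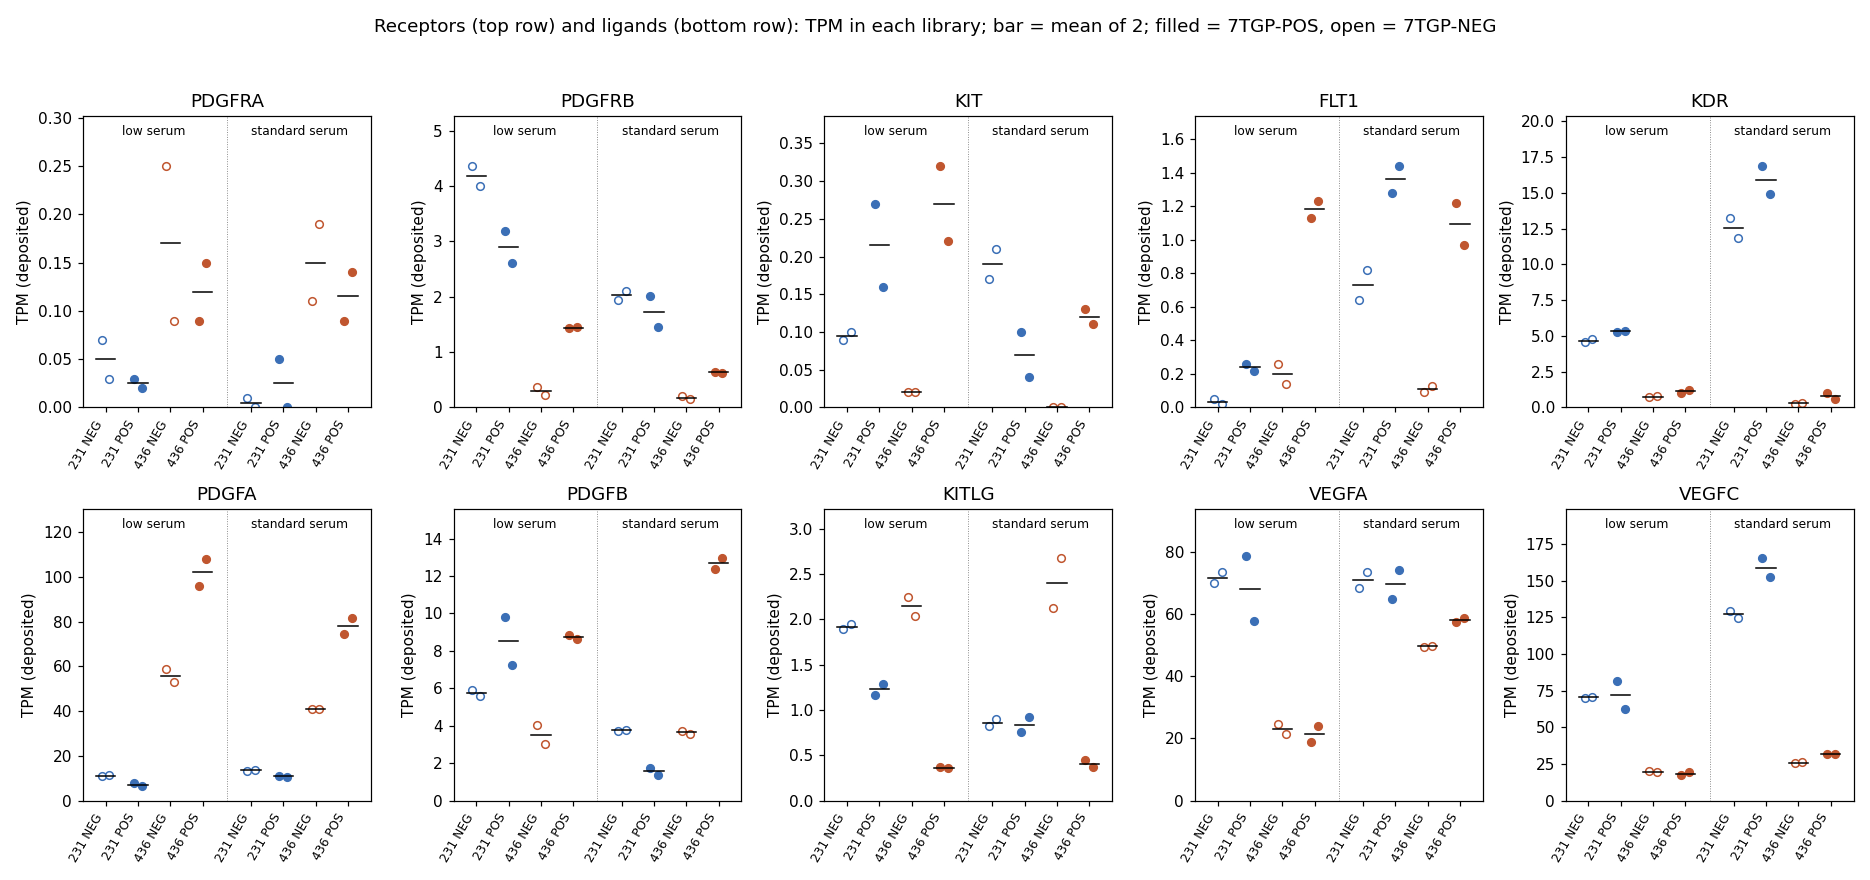
TPM of each of the 10 genes in each library, receptors above and ligands below, with the mean of each group of 2 as a bar, filled points for POS and open points for NEG, and MDA-MB-231 in blue and MDA-MB-436 in orange. The vertical scale differs between genes, from under 0.3 TPM for PDGFRA to over 150 TPM for VEGFC.

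The order of the groups differed from gene to gene. In CPM (read counts normalized to library size with TMM factors), PDGFRB in low serum ran from 13.7 ± 0.952 (SD, n = 2) in MDA-MB-231 7TGP-NEG through 10.9 ± 0.421 in 7TGP-POS and 4.26 ± 0.323 in MDA-MB-436 7TGP-POS to 0.73 ± 0.192 in 7TGP-NEG, with no overlap between neighbors. KIT in low serum was level in both POS sublines, at 0.626 ± 0.205 in MDA-MB-436 and 0.621 ± 0.182 in MDA-MB-231, whose libraries overlapped. FLT1 was highest in MDA-MB-436 7TGP-POS in low serum, at 3.93 ± 0.122 CPM, whereas in standard serum the highest group was MDA-MB-231 7TGP-POS, at 3.20 ± 0.240 CPM. Neighboring groups in the order of levels overlapped for PDGFRA, KIT and VEGFA in both serum conditions and for PDGFRB, FLT1 and KITLG in standard serum. For KDR, PDGFA, PDGFB and VEGFC, no neighbors overlapped in either. How often groups do not overlap over all genes was not counted, here or for the other pairs described. With 2 libraries in a group, a lack of overlap is weak evidence by itself.

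Between the reporter-negative sublines, 9 of 10 genes were called in low serum, against 41.9% of all genes tested, and 8 of 10 in standard serum, against 46.7%. Base medium differed with the cell line and cannot be told apart from it here. KDR, PDGFRB and VEGFC were higher in MDA-MB-231 in both conditions, with log2 differences of 3.02, 4.21 and 2.23 in low serum. The standard serum values were 5.64, 3.74 and 2.46. PDGFA was lower in MDA-MB-231 in both, by -1.92 and -1.43. VEGFA was called only in low serum, at 2.04 (SE 0.08), and was 0.68 (SE 0.08) in standard serum. FLT1 was lower in MDA-MB-231 than in MDA-MB-436 in low serum, at -2.08 (SE 0.56, edgeR adjusted p = 0.000937), and higher in standard serum, at 2.85 (SE 0.33, edgeR adjusted p = 2.64e-07). KITLG was not called in low serum, at 0.24 (SE 0.15), and was lower in MDA-MB-231 in standard serum, at -1.31 (SE 0.21). PDGFB was called in low serum, at 1.10 (SE 0.13), but was at 0.98 without MDA-MB-436 NEG replicate 2, and it was 0.21 (SE 0.16) in standard serum. KIT held 13 counts over the NEG libraries of MDA-MB-231 and 2 over those of MDA-MB-436 in low serum. The standard serum sums were 19 and 0. PDGFRA held 12 and 34 counts in low serum, and the standard serum sums were 1 and 30. Both were called in both conditions, but the low serum call of KIT ended without MDA-MB-436 NEG replicate 1 (edgeR adjusted p = 0.0599), and that of PDGFRA ended without the same library or MDA-MB-231 NEG replicate 2 (edgeR adjusted p = 0.508 and 0.177) and under DESeq2's Wald test (adjusted p = 0.130). On log2(TPM + 0.1), the low serum differences of PDGFRA, KIT and PDGFB were -0.79, 0.70 and 0.70, and none of the 3 was called by limma.

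The difference of the reporter contrast between the cell lines was called for 4 of 10 genes in low serum, against 11.7% of all genes tested, and for 7 of 10 in standard serum, against 13.8%. PDGFRB, KIT, PDGFA and KITLG were called in both conditions, and FLT1, KDR and PDGFB in standard serum only. KITLG was the only one of these 7 whose log2 fold change was higher, that is, less negative, in MDA-MB-231. For KIT in low serum the difference was -2.68 (SE 1.06, edgeR adjusted p = 0.0358). The call ended when any of 6 of the 8 libraries was left out, that is, all but POS replicate 1 of MDA-MB-231 and POS replicate 2 of MDA-MB-436 (edgeR adjusted p = 0.0594 to 0.1254), and under DESeq2's Wald test (adjusted p = 0.117).

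Other genes of the same receptor and ligand families were taken from a list of 14. In MDA-MB-231, 3 rose and 0 fell in low serum (PGF, PDGFD and PDGFRL), and 4 rose and 0 fell in standard serum (the same 3 and VEGFD, which held at most 7 counts in these libraries and was not called by DESeq2, adjusted p = 0.137). In MDA-MB-436, 3 rose (PGF, PDGFC and PDGFD) and 1 fell (IL34) in low serum, and 2 rose (PDGFC and FLT3) and 2 fell (FLT4 and IL34) in standard serum, of which DESeq2 did not call FLT3 (adjusted p = 0.348). Over all genes tested, 5.9% and 7.69% were called in MDA-MB-231 and 10.5% and 12.5% in MDA-MB-436, in low and standard serum. The median log2 fold change over the list was 0.11 and 1.10 in MDA-MB-231 and 0.56 and 0.01 in MDA-MB-436, in low and standard serum.

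PGF, which encodes placental growth factor and binds FLT1, held 165 to 168 counts in NEG and 808 to 895 in POS libraries of MDA-MB-231 in low serum, and 185 to 216 against 712 to 813 in standard serum. In MDA-MB-436 it held 27 to 46 against 127 to 148, and 30 to 49 against 80 to 93. No POS library overlapped its NEG group. The log2 fold changes were 2.42 (SE 0.10) and 1.84 (SE 0.17) in MDA-MB-231 and 1.94 (SE 0.18) and 0.90 (SE 0.26) in MDA-MB-436, of which the last was under the fold threshold (edgeR adjusted p = 0.0118). FLT1 was higher in the same POS libraries.

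PDGFC, a PDGFRA ligand that needs proteolytic activation, rose in MDA-MB-436 POS cells with a log2 fold change of 1.19 (SE 0.07) in low serum and 1.53 (SE 0.09) in standard serum. In MDA-MB-231, where it held 54.0 to 80.8 TPM, the values were 0.02 (SE 0.05) and -0.23 (SE 0.08). PDGFD, a ligand of PDGFRB, rose in MDA-MB-231 by 1.34 (SE 0.14) and 2.58 (SE 0.23) on the log2 scale. In MDA-MB-436 it rose by 1.06 (SE 0.18) in low serum and was at 0.39 (SE 0.22, edgeR adjusted p = 0.155) in standard serum. FLT4, the main receptor of VEGFC, was present in MDA-MB-436 and at the edge of detection in MDA-MB-231, where it held 0 to 7 counts. In MDA-MB-436 it held 18.9 to 22.1 TPM in NEG and 9.28 to 9.73 in POS libraries in low serum, and 19 to 20.6 against 9.71 to 11.0 in standard serum. Its log2 fold change was -0.86 (SE 0.07) in low serum, under the fold threshold, and -1.03 (SE 0.11) in standard serum. VEGFC stood the other way between the NEG sublines, higher in MDA-MB-231. The VEGF co-receptor NRP1, at 181 to 241 TPM in MDA-MB-231 and 8.10 to 11.4 TPM in MDA-MB-436, was not called in any reporter contrast.

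Of 24 genes of signaling close to the receptors (adaptors, kinases and phosphatases), 0 were called in MDA-MB-231 in low serum by edgeR's quasi-likelihood test (16 had an unadjusted p under 0.05, and DESeq2 called 0), 1 rose there in standard serum (PTPN6), and 1 fell in MDA-MB-436 in each serum condition (SRC). Of all genes tested, edgeR called 5.9% and 7.69% in MDA-MB-231 and 10.5% and 12.5% in MDA-MB-436, in low and standard serum. SRC, a kinase recruited by these receptors, had log2 fold changes of -1.11 (SE 0.06) and -1.16 (SE 0.08) in MDA-MB-436, and -0.43 (SE 0.06) and -0.51 (SE 0.08) in MDA-MB-231. The 24 genes had median log2 fold changes between -0.23 and -0.00798 in the 4 contrasts.

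Of 17 genes that regulate, process or release the ligands or act with them in vessels, 3 were called in MDA-MB-231 in each serum condition (MMP9 rose, EGLN3 and PCSK5 fell). In MDA-MB-436, 5 were called in low serum (THBS1 and ANGPT1 rose, ANGPT2, PCSK5 and MMP9 fell) and 4 in standard serum (THBS1 and ANGPT1 rose, HSPG2 and EGLN3 fell). DESeq2 called 2 in low serum, THBS1 and PCSK5, and not ANGPT1, ANGPT2 or MMP9 (adjusted p = 0.0734, 0.123 and 0.0813). The shares of all genes tested that edgeR called were 5.9% and 7.69% in MDA-MB-231 and 10.5% and 12.5% in MDA-MB-436. THBS1 encodes thrombospondin, an inhibitor of angiogenesis. Its counts in MDA-MB-436 were 1337 to 1552 in NEG against 8917 to 9615 in POS libraries in low serum and 342 to 393 against 2894 to 3480 in standard serum. The log2 fold changes were 2.71 (SE 0.06) and 2.88 (SE 0.09). EGLN3, an oxygen sensor that is itself induced by hypoxia, fell in MDA-MB-231 by -1.36 (SE 0.13) in low serum and -3.82 (SE 0.36) in standard serum on the log2 scale. VEGFA, a textbook hypoxia target, had values of 0.12 and -0.07 there. HIF1A, EPAS1, ARNT, VHL and EGLN1, also in the list, were not called in any reporter contrast. A part of hypoxia in these values was not tested.

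The 10 genes lie on 7 chromosomes, with PDGFRA, KIT and KDR as direct neighbors on chromosome 4 among the genes tested. In MDA-MB-436 in standard serum, KIT and KDR were called higher and PDGFRA, near the floor, stood at -0.54 (SE 0.53). In low serum KIT was called and KDR stood at 0.80. CHIC2, before PDGFRA, stood at 1.35 (SE 0.09, called) in standard serum and 0.57 (SE 0.11) in low serum. GSX2, between CHIC2 and PDGFRA, stood at 3.82 (SE 1.86) and 3.12 (SE 2.21) and was not called. SRD5A3, next after KDR, stood at -0.35 (SE 0.09) and 0.10 (SE 0.08). Whether this region moved as a block was not tested. The medians of the 50 nearest genes tested around each of the 10 genes (27 around PDGFA, near the end of chromosome 7) had a range of -0.12 to 0.31 in MDA-MB-436. For MDA-MB-231 they lay between -0.80 and 0.17, and the lowest values in low and standard serum, -0.58 and -0.80, were those around VEGFA on chromosome 6. These are medians of the reporter contrasts. Between the NEG sublines, the medians around VEGFA were 1.54 in low and 1.36 in standard serum, beside 2.04 and 0.68 for VEGFA. Around KITLG they were 1.70 and 1.81, beside 0.24 and -1.31 for KITLG. Around the other genes they lay between -0.91 and 0.72.

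The genes most like each of the 10 in their pattern over the 16 libraries were found by Pearson correlation of log2(TPM + 0.1) after the mean of each cell line in each serum condition was subtracted. This leaves the reporter difference and the replicate spread. Among 13544 protein-coding genes, FLRT2 was closest to PDGFRB (r = 0.979), and those closest to FLT1 were SERPINE2 (r = 0.982) and COL8A1 (r = 0.980). SH3TC2 (r = 0.989) and TOX2 (r = 0.986) were closest to PDGFA, and DAB2 (r = 0.989) and FEZF1 (r = 0.987) to KITLG. At r of at least 0.9 stood 556 genes for KITLG and 320 for PDGFA, but 11 for PDGFB and 6 for VEGFA. KIT and PDGFRA, under 1 TPM in every group, were left out.

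Across the series, library totals ran from 27918418 to 32667756 counts in low serum and from 31827130 to 46044073 in standard serum. Among 7 markers of breast epithelium and subtype, VIM stood at 369 to 3882 TPM and ERBB2 at 16.9 to 27.8 TPM. CDH1, ESR1 and PGR were at no more than 0.20 TPM. Levels of EPCAM and KRT18, also in the list, are not given here, and all 7 summed to 549.56 to 4276 TPM. Of these markers, VIM fell in MDA-MB-231 POS cells in both serum conditions (log2 fold changes of -1.05 and -1.03), ESR1 was called higher there in standard serum on at most 25 counts, and PGR fell in MDA-MB-436 in low serum. Of 4 Wnt target genes (AXIN2, LEF1, NKD1 and RNF43), RNF43 rose in MDA-MB-231 in standard serum, and AXIN2 and LEF1 were not called in any reporter contrast, with log2 fold changes of -0.12 to 0.90. NKD1 fell in MDA-MB-436 in low serum and RNF43 fell there in standard serum. Leukocyte markers (PTPRC, CD53 and LAPTM5) summed to 27.8 to 35.1 TPM in MDA-MB-231 and 0.40 to 1.13 TPM in MDA-MB-436, and PTPRC rose in MDA-MB-231 in low serum. Fibroblast markers (LUM, DCN and PDPN) summed to 23.3 to 41.6 TPM in MDA-MB-436 NEG cells and 3.95 to 7.84 in POS cells. Only PDPN was called there, and it fell in both serum conditions. In standard serum, 2 of the 3 markers were at or under the floor in NEG and in POS cells of MDA-MB-436. LUM was called higher by edgeR in MDA-MB-231 in standard serum, on 17 to 19 counts in NEG against 38 to 45 in POS libraries, and was not called by DESeq2 (adjusted p = 0.266). Beside the calls of all these markers, edgeR called 5.9% and 7.69% of all genes tested in MDA-MB-231, in low and standard serum. In MDA-MB-436 it called 10.5% and 12.5%.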

How the data were processed

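RNA-Seq was measured in 16 libraries of the 4 sublines in 2 serum conditions. The authors aligned reads to hg19 with STAR (version 2.6.1a per the submitters' processing notes), counted them on Gencode v19 genes, and deposited whole counts, without normalization. TPM values were also deposited; how the authors computed them is not stated. All 32 value columns were matched to samples by name. Symbols and biotypes came from Gencode v44 lifted to GRCh37 (55538 of 57820 genes).

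Each serum condition was fitted alone, with 4 groups and 8 libraries. Protein-coding genes with at least 10 counts over the 8 libraries were tested, 16069 of them in low and 15414 in standard serum, with TMM factors and edgeR's robust quasi-likelihood test, with Benjamini-Hochberg adjustment over all genes tested. SEs are the size of the log2 fold change over the root of its F statistic. The floor is 3 counts per library, and intervals (95%, exact binomial) and floors cover counting error only. Library totals of 27918418 to 46044073 counts set the precision. Alternatives were DESeq2 and its size factors, other filters, all biotypes, a replicate block, limma-trend on log2(TPM + 1) and log2(TPM + 0.1), adjusted p alone, and leaving out each library. The fit was tested on simulated data with 200 genes changed 4-fold.

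The 10 genes, the pathway lists and the marker lists were chosen with earlier results of these data known. All 10 genes are named; list genes are named where called, pattern-alike genes are the 2 of highest correlation (1 of them is not reported here), and other genes are named beside a result. Promoter sequences are from RefSeq (GRCh38.p14) and were matched by symbol (8 of 10 genes); the choice of GC box and TATA letters was made after the values were seen. The tests ran in R 4.3.3 with limma 3.58.1, edgeR 4.0.16 and DESeq2 1.42.0. Tables and plots were made in Python 3.11.15 with pandas 2.3.3, scipy 1.17.1, matplotlib 3.10.9 and numpy 2.4.6.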

Additional observations from a re-analysis of the deposited data

Results flagged for a closer look

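The reporter contrast differed between the cell lines for 4 of the 10 genes in low serum and 7 in standard serum, against 11.7% and 13.8% of all genes tested, by a test of the difference itself in the edgeR model (MDA-MB-231 minus MDA-MB-436, on the log2 scale). In low serum the difference was -2.86 for PDGFRB, -2.68 for KIT, -1.56 for PDGFA and 1.85 for KITLG. In standard serum it was -2.10 for PDGFRB, -2.32 for FLT1, -1.13 for KDR, -1.18 for PDGFA, -3.003 for PDGFB and 2.55 for KITLG. For KIT in standard serum the fitted difference was -7.14, a value that depends on the prior count because both MDA-MB-436 7TGP-NEG libraries held 0 counts. PDGFRB, KIT, PDGFA and KITLG are in both sets, with the same sign in each. The low serum call of KIT ended when any of 6 of the 8 libraries was left out and under DESeq2's Wald test, and the call of KDR ended without MDA-MB-436 NEG replicate 1, NEG replicate 2 or POS replicate 1. Groups hold 2 libraries each, too few to look for a single library that stands apart.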

How the results depend on the processing

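With a limma-trend fit on log2(TPM + 1), whose pseudocount exceeds the level of most receptors, the calls among the 10 genes fell in low serum from 2 to 0 in MDA-MB-231, from 6 to 2 in MDA-MB-436, from 4 to 2 for the cell-line difference and from 9 to 5 between the NEG sublines. In standard serum they fell from 1 to 0, from 6 to 2, from 7 to 3 and from 8 to 4. PDGFA in MDA-MB-436 in low serum, well above that pseudocount, also lost its call, at 0.85 and, on log2(TPM + 0.1), at 0.87. The cause of the lost calls was not tested. In MDA-MB-231 in low serum, 1 gene was called with log2(TPM + 0.1), with DESeq2's Wald test and with the replicate block, and 8 with adjusted p alone; in standard serum, adjusted p alone called 4. Leaving out 1 library gave 1 to 2 calls in MDA-MB-231 in low serum (FLT1 in each case, without KIT when NEG replicate 1, NEG replicate 2 or POS replicate 1 was left out) and 1 to 2 in standard serum (FLT1 added without NEG replicate 2).

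Replicate numbers are shared between groups, but no source says that they pair libraries, and the replicate differences of NEG and POS correlated at -0.00357, -0.06, 0.112 and 0.0852. With the replicate block, KIT in MDA-MB-231 in low serum was no longer called (log2 fold change 1.33), and no other call changed.

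Directions turned only for log2 fold changes that were not called. On the log2(TPM + 1) and log2(TPM + 0.1) scales in low serum, VEGFA was -0.085 and -0.086 in MDA-MB-231 and -0.11 and -0.11 in MDA-MB-436, VEGFC was -0.11 and -0.12 in MDA-MB-436, KITLG between the NEG sublines was -0.11 and -0.15, and the cell-line difference was -0.60 and -0.78 for FLT1, 0.022 and 0.025 for VEGFA and, with log2(TPM + 1), 0.026 for PDGFRA. The VEGFA difference was also 0.032 with DESeq2's size factors and with its Wald test, 0.026 with filterByExpr and 0.025 with all biotypes. Leaving out 1 library, the ranges that crossed 0 were, in low serum, -0.75 to 0.50 for PDGFRA in MDA-MB-436 and, for the cell-line difference, -1.18 to 0.15 for PDGFRA, -0.35 to 0.89 for FLT1, -0.14 to 0.12 for VEGFA and -0.000133 to 0.18 for VEGFC. In standard serum they were -2.55 to 4.26 for PDGFRA, -0.16 to 0.017 for VEGFA and -0.22 to 0.049 for KITLG in MDA-MB-231, and -2.01 to 4.80 for the PDGFRA difference. The cause was not tested. Of the values for single genes, 607 with 1 library left out and 583 under other settings kept their direction and their side of the threshold, while 17 and 36 kept their direction and lost the call. Each library was left out in turn for every comparison, also for those it was not part of, where the fold change could move little. Such fits are among the 607.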

Other observations

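In Gencode v44 lifted to GRCh37, opposite-strand lncRNA genes overlap KDR, VEGFA, VEGFC, PDGFB and KITLG, and a protein-coding gene on the same strand overlaps PDGFRA. Those over KDR, VEGFA and VEGFC held at most 6 counts in any library, and the others were not analysed here.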
